A study of Mus musculus with 10 samples.

Results

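The 49 potassium channel genes described here were chosen by symbol and by depth, from 92 protein-coding symbols of the potassium channel nomenclature (Kcn, a family letter and a number) in count tables of 25700 genes. A member had 10 or more counts in at least 5 of 10 mice, and Kcnj8 was left out by the rule. The family was taken up because Kcnf1 was among the genes that were higher in the knockout with a small p, so the Kcnf1 difference between genotypes is given as a description only. Every one of the 49 members passed the filter on low counts of the test used below, and 40 of them had 10 or more counts in every mouse. Just inside the rule were Kcnh7, Kcnh1 and Kcns3, with 9.2, 10.5 and 10.9 counts on average over the 10 mice. Just outside it were Kcnmb4, Kcnh3 and Kcnj16, with 9.2, 8.1 and 6.0 counts on average. Of the 43 matching symbols outside the rule, 3 had no read in any mouse.

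Potassium channels let potassium leave or enter a cell along its electrochemical gradient and so set the resting potential and end the action potential. Pore subunits fall into voltage-gated, inwardly rectifying, calcium- or sodium-activated and two-pore-domain families, while silent and auxiliary subunits assemble with them and alter their gating or trafficking. In skeletal muscle, inward rectifiers and chloride channels hold the fibre at rest, voltage-gated channels repolarise it, and hyperpolarisation through an inward rectifier accompanies the fusion of myoblasts into new fibres.

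RNA was measured in the tibialis anterior muscle of male C57BL/6 mice aged 12 weeks, at day 6 after an injection of cardiotoxin, a venom toxin that destroys fibres and starts their regeneration. One group of 5 mice carried Pax7Cre and is labelled wild type, and the other group of 5 carried Pax7Cre with a floxed allele of the X-linked miR-501 gene (miR-501KO). The Pax7 promoter drives Cre in satellite cells and the cells that descend from them, so other cells of the muscle keep the allele, and the controls carry Cre as well. The question of the comparison was which genes differ in regenerating muscle once miR-501 is deleted in the myogenic lineage.

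Total counts per library ran from 18609222 in Pax7Cre mouse 3 to 24753258 in miR-501KO mouse 1, and the 49 members together held 6248 to 9680 of them, or 0.0332% to 0.0430%. The gene of miR-501 was not among the genes listed, so its deletion was not checked in these libraries. Clcn5, the gene that hosts it, had 1264, 945, 1237, 1728 and 1416 counts in Pax7Cre mice 1 to 5 and 1629, 1375, 1553, 1182 and 1580 counts in miR-501KO mice 1 to 5, ranges that overlapped. Pax7 itself was read in every mouse, at 18.7 to 25.8 CPM, the standard scaling of counts to library size.

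The libraries differed in how much mature fibre RNA they held, and 2 of them stood apart. A mature fibre score was the mean log2 CPM of 25 metabolic, calcium-handling and excitation genes of the adult fibre, none of them a member and none a sarcomeric gene, centred on the mean of the 10 mice, so that a difference of 1 in the score is 1 log2 unit in the mean marker. It was −0.14, 0.80, −0.32, −0.63 and 0.032 in Pax7Cre mice 1 to 5 and −0.16, −0.16, 0.034, 0.43 and 0.13 in miR-501KO mice 1 to 5. Pax7Cre mouse 2 was the highest and Pax7Cre mouse 4 the lowest, and the control group spanned more than the knockout group, whose values all lay inside its range. All 25 markers were listed, the most abundant was Ckm, and their summed level ran from 21671 CPM in Pax7Cre mouse 4 to 56099 CPM in Pax7Cre mouse 2. The same mice were at the ends of the share of counts from mitochondrial genes, with 6.59% in Pax7Cre mouse 4 and 14.0% in Pax7Cre mouse 2. A score of 15 genes of regenerating fibres and developing muscle, summing to between 7144 CPM in Pax7Cre mouse 2 and 9836 CPM in Pax7Cre mouse 5 with Actc1 the most abundant, ran the other way, from −0.42 in Pax7Cre mouse 2 to 0.28 in Pax7Cre mouse 4. The 18 macrophage markers, led by Lyz2, summed to between 6231 CPM in Pax7Cre mouse 2 and 8756 CPM in Pax7Cre mouse 1. Across the 10 mice the mature fibre score correlated with the regenerating fibre score at r = −0.85 and with the macrophage score at r = −0.63, so the scores are not separate axes. In bulk tissue, fewer cells of a type and less RNA per cell cannot be told apart.

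Levels were compared between genes as CPM per kilobase of annotated exon. The lowest was Kcnh7 at 0.0278, and the sum over the members was 80.0. Among the highest were Kcna7 at 7.14 ± 3.37, Kcnj11 at 7.12 ± 2.93 and Kcnc1 at 6.55 ± 1.96 CPM per kilobase (mean ± SD, n = 10), and those 3 did not differ beyond their spread. Then came Kcnk6 at 4.92 ± 0.561, Kcnj2 at 4.54 ± 0.919 and Kcne1l at 3.65 ± 0.638 CPM per kilobase. Kcnc4 at 2.99 ± 2.34, Kcnk13 at 2.67 ± 0.318 and Kcnab2 at 2.62 ± 0.497 CPM per kilobase followed. From Kcnk6 to Kcnab2, neighbours in this order differed by less than the larger of their SDs. In all, 18 members averaged above 1 CPM per kilobase and 21 below 0.5, and Kcnf1 ranked 43 of 49 at 0.173. With the longest transcript in place of all exons as the length, 8 of the 10 highest members were the same.

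**Figure D1:**
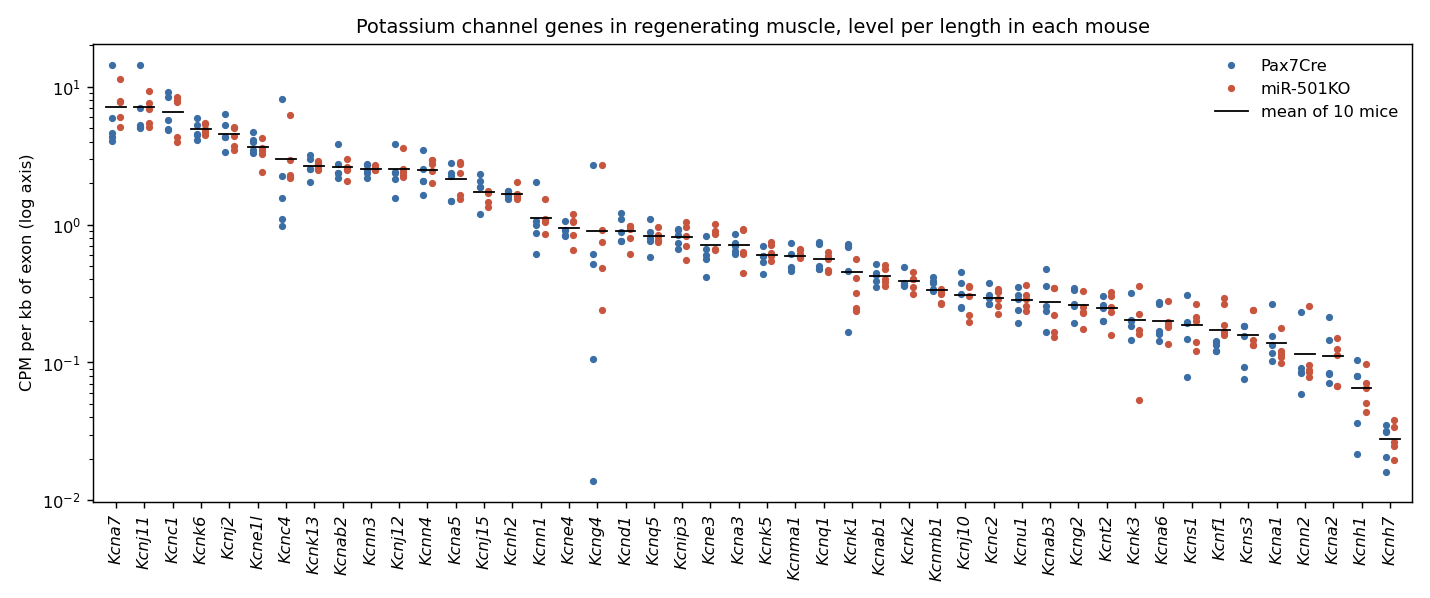
Level of 46 of the 49 potassium channel genes in each of 10 mice, as CPM per kilobase of exon on a log axis, with 1 point per mouse (blue Pax7Cre, red miR-501KO) and a bar at the mean of the 10 mice. Kcnh7 is the lowest at 0.0278 and Kcng4 has the widest spread, from 0.0139 in Pax7Cre mouse 3 to 2.71 in miR-501KO mouse 4.

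By role, the 12 members among the pore subunits of the Kv1 to Kv4 families summed to 22.8 ± 7.95 CPM per kilobase, with Kcna7 the highest (SD over 10 mice). The 5 inward rectifiers summed to 16.2 ± 4.03, led by Kcnj11, and the 3 Kv7 pores to 11.2 ± 1.53. The 8 auxiliary subunits summed to 9.77 ± 0.789, led by Kcne1l, and the 6 two-pore-domain subunits, which carry background current, to 9.24 ± 0.948, led by Kcnk6. The 7 calcium- or sodium-activated pores summed to 7.38 ± 0.545, with Kcnn3 at 2.54 and Kcnn4 at 2.48 near each other at the top, the 3 members of the EAG, ERG and ELK families to 1.76 ± 0.157, led by Kcnh2 at 1.67, and the 5 electrically silent subunits to 1.68 ± 0.937, led by Kcng4 at 0.905 CPM per kilobase. The sums of the Kv1 to Kv4 pores, the inward rectifiers and the silent subunits thus varied most between mice for their size, and those of the calcium-activated, auxiliary and EAG, ERG and ELK members least. None of the role sums separated the genotypes: for the Kv1 to Kv4 pores it was 22.3 ± 10.1 in Pax7Cre and 23.3 ± 6.32 in miR-501KO (n = 5 each), and for the inward rectifiers 16.7 ± 5.35 and 15.7 ± 2.69.

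For 19 members an annotated exon of another gene overlaps, on the opposite strand for 18 of them and on the same strand for Kcnab2. The library kit keeps strand, but whether counting used it is not stated in the sources used here, so reads of such a pair may not have been told apart. Among the members named below this touches Kcnj15, Kcnn1, Kcnk1, Kcne3, Kcnma1, Kcnab1, Kcnn2, Kcnq5, Kcnab2 and Kcnh7, whose values are uncertain to that extent.

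The first comparison across mice asked which potassium channel genes followed the mature fibre score, with genotype in the fit and p-values adjusted over all 14410 genes tested (edgeR quasi-likelihood test, Benjamini-Hochberg adjustment). With a higher score 12 of the 49 members rose (24.5%), beside 10.9% of all genes tested, and 3 fell (6.12%), beside 5.79% of all genes. At an unadjusted p under 0.05, 14 members rose and 6 fell, beside 29.8% of all genes in either direction. The median slope of the members was 0.030 and that of all genes −0.019 log2 units per unit of score. With 1 mouse left out the members' median ran from −0.011 (without Pax7Cre mouse 3) to 0.076 (without miR-501KO mouse 4). The 12 that rose were 5 of the 12 Kv1 to Kv4 pores, 3 of the 5 inward rectifiers, 2 of the 7 calcium- or sodium-activated pores, 1 of the 3 Kv7 pores and 1 of the 5 silent subunits. None of the 8 auxiliary, 6 two-pore-domain or 3 EAG, ERG and ELK members rose by that test. The 3 that fell were 2 two-pore-domain subunits and 1 inward rectifier. Most of these calls were lost without Pax7Cre mouse 2. In edgeR fits without that mouse, 2 members rose, beside 0.517% of 14510 genes, and 0 fell, beside 0% of genes. At an unadjusted p under 0.05, 9 members then rose and 1 fell, beside 11.2% of all genes in either direction. The slopes of all 12 and all 3 kept their sign, and 9 of the 12 and 0 of the 3 then had an unadjusted p under 0.05. Those of Kcnc4, Kcnn1 and Kcna5, which rose, went from 2.35, 1.15 and 0.74 to 2.22, 1.13 and 1.12. That of Kcnj15, which fell, went from −0.61 to −0.40. Of the markers of other cells, 3 of 12 endothelial, 3 of 12 fibro-adipogenic progenitor, 1 of 12 smooth muscle and pericyte and 1 of 12 Schwann cell genes rose with the score by the same test, and 2 of 18 macrophage, 2 of 12 smooth muscle and pericyte, 1 of 7 satellite cell and 7 of 15 regenerating fibre genes fell. The summed endothelial markers ran from 978 CPM in Pax7Cre mouse 4 to 1249 CPM in Pax7Cre mouse 2, and the summed fibro-adipogenic progenitor markers were lower in Pax7Cre mouse 2, at 14713 CPM, than in Pax7Cre mouse 4, at 18938 CPM. The part of these cells in the slopes was not tested.

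Among the voltage-gated pores, Kcnc4, a Shaw-related channel that repolarises quickly (ENSMUSG00000027895, chr3:107438303-107459552, minus strand), had the steepest tested relation relative to its error. Its counts were 128, 570, 76, 89 and 168 in Pax7Cre mice 1 to 5 and 201, 171, 200, 429 and 256 in miR-501KO mice 1 to 5. Pax7Cre mouse 2 and miR-501KO mouse 4, the mice with the highest mature fibre scores, were far above the rest, Pax7Cre mice 3 and 4 were the lowest, and the genotypes overlapped. The slope was 2.35 log2 units per unit of score (SE 0.153, adjusted p = 2.03e-06), and 2.22 without Pax7Cre mouse 2 (adjusted p = 0.00791 by edgeR). Kcna7, a Shaker-related channel of skeletal and heart muscle (ENSMUSG00000038201, chr7:45405653-45409763, plus strand), had 4.62, 14.4, 4.33, 4.03 and 5.97 CPM per kilobase in Pax7Cre mice and 5.12, 5.99, 7.71, 11.4 and 7.90 in miR-501KO mice. The same pair of mice was highest, and 4 of the 5 controls lay below the middle of the knockout values. Its slope was 1.44 (SE 0.127, adjusted p = 2.11e-05), and 1.27 without Pax7Cre mouse 2 (adjusted p = 0.0368 by edgeR). Kcnc1, a close relative of Kcnc4, had 1042, 1631, 872, 1342 and 1618 counts in Pax7Cre mice and 1028, 798, 1822, 1381 and 1873 in miR-501KO mice. Here miR-501KO mice 3 and 5, of middling score, were the highest by count and Pax7Cre mouse 2 the highest by CPM, and the slope was 0.76 (SE 0.237, adjusted p = 0.0420). Kcna5, a Shaker-related channel, also rose, with a slope of 0.74 (adjusted p = 0.0344). Without Pax7Cre mouse 2 the slopes of Kcnc1 and Kcna5 were 1.09 and 1.12, with adjusted p of 0.300 and 0.239.

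Among the inward rectifiers, Kcnj11, the pore of the ATP-sensitive potassium channel that ties membrane potential to the energy state of the fibre (ENSMUSG00000096146, chr7:46093953-46100764, minus strand), had 5.25, 14.4, 5.01, 5.12 and 6.99 CPM per kilobase in Pax7Cre mice 1 to 5. It had 5.13, 5.42, 6.91, 9.34 and 7.58 in miR-501KO mice 1 to 5. Pax7Cre mouse 2 was far above any other mouse, miR-501KO mouse 4 came next, and the other 8 mice of both genotypes were mixed. The slope was 1.19 (SE 0.12, adjusted p = 5.17e-05), and 0.99 without Pax7Cre mouse 2 (adjusted p = 0.0633 by edgeR). Kcnj2 and Kcnj12, strong inward rectifiers that hold the resting potential, rose with slopes of 0.57 (adjusted p = 0.0132) and 0.77 (adjusted p = 0.00696). Without Pax7Cre mouse 2 their slopes were 0.65 and 0.69, with adjusted p of 0.346 and 0.408. Kcnj15, an inward rectifier better known from kidney and other epithelia, went the other way, with 263, 142, 278, 326 and 241 counts in Pax7Cre mice and 273, 227, 222, 160 and 263 in miR-501KO mice. The mice with the highest mature fibre scores, Pax7Cre mouse 2 and miR-501KO mouse 4, were the lowest of their groups. Kcnj15 fell by 0.61 per unit of score on the log2 scale (SE 0.137, adjusted p = 0.00909), with a slope of −0.40 without Pax7Cre mouse 2 (adjusted p = 0.554).

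Of the calcium-activated pores, Kcnn1, a small-conductance channel (ENSMUSG00000002908, chr8:70842049-70863258, minus strand), had 108, 177, 75, 70 and 93 counts in Pax7Cre mice and 98, 102, 121, 133 and 117 in miR-501KO mice. Pax7Cre mouse 2 was again the highest and Pax7Cre mice 3 and 4 the lowest, and the knockout values all lay inside the control range. The slope was 1.15 (SE 0.145, adjusted p = 0.000208), and 1.13 without Pax7Cre mouse 2 (adjusted p = 0.0955 by edgeR). Kcnn2, another small-conductance channel, read at low counts, rose with a slope of 1.34 (adjusted p = 0.0316), which was 1.15 without Pax7Cre mouse 2 (adjusted p = 0.619). As a correlation with the score over the 10 mice, its Pearson's r was 0.709 but its Spearman's rho only 0.212 (permutation p = 0.559). Kcnn3, known for its return in denervated muscle, stayed within 467 to 673 counts over the 10 mice. Kcng4, a silent subunit that alters other voltage-gated pores (ENSMUSG00000045246, chr8:119623854-119635680, minus strand), varied more than any other member in the plot of levels. Its counts were 52, 195, 1, 10 and 40 in Pax7Cre mice and 87, 39, 22, 195 and 67 in miR-501KO mice. Pax7Cre mouse 2 and miR-501KO mouse 4 shared the highest count, and the single read in Pax7Cre mouse 3 fixes its level there only within counting error. The slope was 3.32 (SE 0.561, adjusted p = 0.00157), and 3.67 without Pax7Cre mouse 2 (adjusted p = 0.161). Kcnq5, of the Kv7 family, rose with a slope of 0.51 (adjusted p = 0.0299, and 0.525 without Pax7Cre mouse 2).

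**Figure D2:**
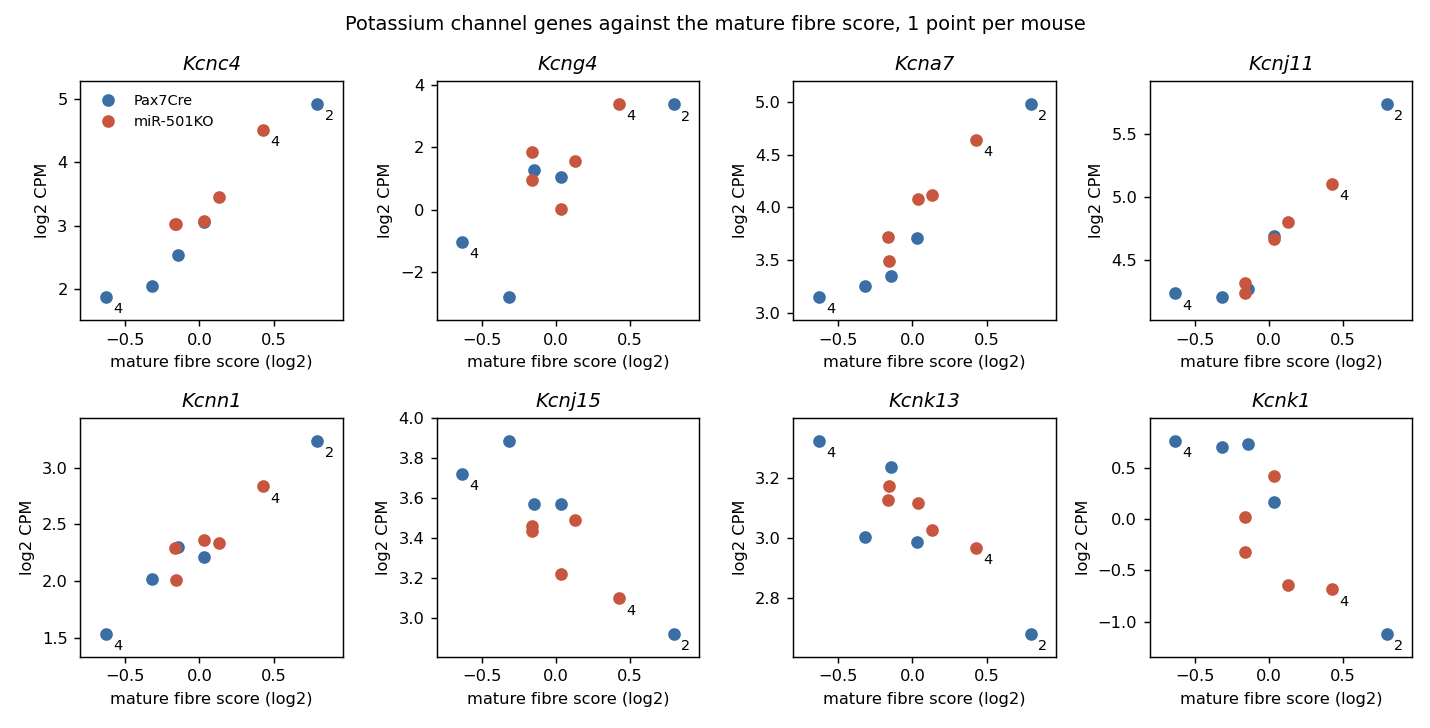
Log2 CPM of 8 potassium channel genes against the mature fibre score, with 1 point per mouse (blue Pax7Cre, red miR-501KO) and mouse numbers beside Pax7Cre mice 2 and 4 and miR-501KO mouse 4. Kcnc4, Kcng4, Kcna7, Kcnj11 and Kcnn1 are highest in Pax7Cre mouse 2 or miR-501KO mouse 4, and Kcnj15, Kcnk13 and Kcnk1 are low there.

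Among the two-pore-domain subunits, Kcnk1 and Kcnk13 fell with the mature fibre score. Kcnk1 had 35, 7, 29, 40 and 21 counts in Pax7Cre mice and 23, 15, 30, 10 and 13 in miR-501KO mice, and its slope was −1.38 (SE 0.389, adjusted p = 0.0280). Kcnk13, known from microglia and other myeloid cells, had 208, 120, 150, 247 and 160 counts in Pax7Cre mice and 223, 183, 206, 146 and 190 in miR-501KO mice, and its slope was −0.41 (SE 0.121, adjusted p = 0.0343). For both genes Pax7Cre mouse 4 was the highest mouse and Pax7Cre mouse 2 the lowest, and the genotypes overlapped. Without Pax7Cre mouse 2 the slopes were −0.88 for Kcnk1 (adjusted p = 0.639) and −0.36 for Kcnk13 (adjusted p = 0.562). Next in order were Kcnn4, an intermediate-conductance channel of blood and immune cells, with a slope of −0.55 (adjusted p = 0.0600), and Kcnab2, a cytoplasmic beta subunit of Kv1 channels, with −0.43 (adjusted p = 0.0789). Without Pax7Cre mouse 4 these were −0.30 and −0.19, and without Pax7Cre mice 2 and 4 that of Kcnn4 was 0.017.

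**Figure D3:**
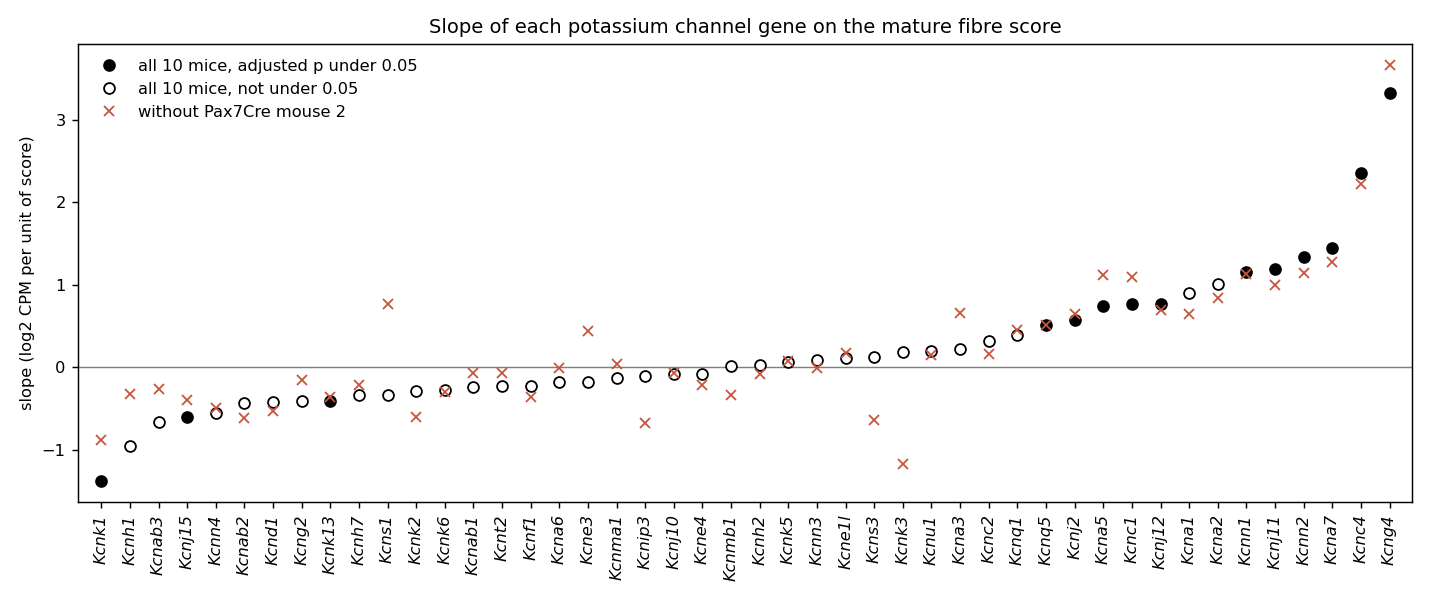
Slope of 46 of the 49 potassium channel genes on the mature fibre score, in log2 units per unit of score, for all 10 mice (circles, filled where the adjusted p is under 0.05) and without Pax7Cre mouse 2 (crosses). The slopes run from −1.38 for Kcnk1 to 3.32 for Kcng4, and the members shown that passed the test keep their sign in both.

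The relation was also taken without genotype, as a correlation of log2 CPM with the score over the 10 mice, with permutation p-values adjusted over 43230 relations of 14410 genes with 3 scores. By Pearson's r 5 members were positive at an adjusted p under 0.05 (10.2%, beside 5.88% of all genes) and 3 negative (6.12%, beside 2.1%). For Kcnc4 r was 0.965 (permutation p = 1e-05, the smallest that 100000 permutations can give, adjusted p = 0.0115) and Spearman's rho 0.952 (permutation p = 0.00015, adjusted p = 0.0432), and r was 0.942 without Pax7Cre mice 2 and 4, the mice farthest from the median score. For Kcnj11 r was 0.943 (permutation p = 3e-05, adjusted p = 0.0135) and rho 0.939 (permutation p = 0.00025, adjusted p = 0.0478), and r was 0.972 without the same mice. For Kcnk13 r was −0.87 (permutation p = 0.002, adjusted p = 0.0439) but rho was −0.709 (permutation p = 0.0262, adjusted p = 0.227), and r was −0.492 without those mice. The other negative ones were Kcnj15 with r = −0.872 (permutation p = 0.00136, adjusted p = 0.0375) and Kcnk1 with r = −0.84 (permutation p = 0.00101, adjusted p = 0.0333), which were −0.785 and −0.692 without those mice. Kcna7 and Kcnn1 were also positive, with r = 0.957 (permutation p = 2e-05, adjusted p = 0.0115) and r = 0.971 (permutation p = 5e-05, adjusted p = 0.0152). Without those mice they were 0.947 and 0.888. The r of Kcnc4, Kcnj11 and Kcna7 thus stayed above 0.9 without the extreme mice, and that of Kcnk13 came closest to 0.

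Against the regenerating fibre score, whose genes mark new fibres, some members went the other way. Kcnj15 and Kcnk13 rose with it, and Kcnc4 and Kcnj11 fell. Others, such as Kcnn4 and Kcnk1, passed the test on a single score. By the edgeR test 5 of 49 members rose (10.2%), beside 7.52% of all genes tested, and 9 fell (18.4%), beside 11.5%. The 5 that rose were Kcnn4 with a slope of 1.40 (adjusted p = 0.0195), Kcnab2 with 1.10 (adjusted p = 0.0264), Kcnk6 with 0.77 (adjusted p = 0.0276), Kcnj15 with 1.17 (adjusted p = 0.0365) and Kcnk13 with 0.88 (adjusted p = 0.0375). Without Pax7Cre mouse 4 the slopes of Kcnn4 and Kcnab2 were 0.91 and 0.58, and without Pax7Cre mouse 2 those of Kcnab2 and Kcnj15 were 1.80 and 0.39. Of the 10 fits that left out 1 mouse each, the test was passed in 8 by Kcnn4, 8 by Kcnab2, 7 by Kcnk6, 5 by Kcnj15 and 4 by Kcnk13. The 5 are 2 two-pore-domain subunits, an inward rectifier, a calcium-activated pore and an auxiliary subunit. Kcnn4 had 289, 158, 201, 443 and 215 counts in Pax7Cre mice and 350, 317, 248, 282 and 294 in miR-501KO mice. Kcnk6, which carries potassium efflux in macrophages, had 414, 325, 354, 614 and 444 counts in Pax7Cre mice and 487, 477, 496, 349 and 524 in miR-501KO mice. Both were highest in Pax7Cre mouse 4 and lowest in Pax7Cre mouse 2, the ends of the regenerating fibre score, and knockout values lay between them. Of the markers of other cells, 4 of 18 macrophage, 2 of 7 satellite cell, 2 of 12 smooth muscle and pericyte and 1 of 12 fibro-adipogenic progenitor genes rose with this score by the same test. In the other direction, 4 of 12 endothelial, 5 of 12 fibro-adipogenic progenitor, 2 of 7 satellite cell, 2 of 12 smooth muscle and pericyte and 1 of 12 Schwann cell genes fell. The regenerating fibre and macrophage scores correlated at r = 0.59.

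The 9 members that fell with the regenerating fibre score included Kcnn1 with a slope of −2.49 (adjusted p = 0.00113), Kcnc4 with −4.65 (adjusted p = 0.00138), Kcna7 with −2.87 (adjusted p = 0.00177), Kcnj2 with −1.46 (adjusted p = 0.00215) and Kcnj11 with −2.28 (adjusted p = 0.00380). Without Pax7Cre mouse 2 the slopes of Kcna7 and Kcnj11 were −1.89 and −1.15. The 9 also included Kcng4, Kcna2 and Kcnn2, whose Spearman's rho with this score over the 10 mice was −0.309, −0.806 and −0.0909. Since the scores share libraries and run against each other, the calls of a member on both are not separate results. Without Pax7Cre mouse 2 edgeR called 0 members rising, beside 0.303% of genes, and 1 falling, beside 0.999%. At an unadjusted p under 0.05, 5 members then rose and 4 fell, beside 20.5% of all genes in either direction. All 5 that rose and all 9 that fell over the 10 mice kept their sign. Without Pax7Cre mouse 4 the counts were 1 rising, beside 1.97% of genes, and 7 falling, beside 4.86%. The member left without Pax7Cre mouse 2 was Kcnj2, which was read at 529, 656, 540, 455 and 481 counts in Pax7Cre mice and 475, 431, 661, 521 and 565 in miR-501KO mice. Its slope was then −2.02 (adjusted p = 0.0400). As a correlation over the 10 mice, 2 members were positive at an adjusted p under 0.05 for Pearson's r (4.08%, beside 3.37% of all genes) and 2 negative (4.08%, beside 4.14%), shares near those of all genes. The positive ones were Kcnk6 with r = 0.836 and Kcnk13 with r = 0.88, which were 0.695 and 0.357 without Pax7Cre mice 2 and 4, and the negative ones Kcnn1 with r = −0.887, which was −0.455 without them, and Kcnj2. Without them r was −0.084 for Kcnc4 and 0.24 for Kcng4, against −0.728 and −0.448 over 10 mice. Kcnj2 had r = −0.915 (permutation p = 2e-05, adjusted p = 0.0115) and rho = −0.952 (permutation p = 0.0001, adjusted p = 0.0393), and r = −0.907 without Pax7Cre mice 2 and 4. Kcnj2 was thus lower in mice with a higher regenerating fibre score also among the other 8 mice, although the edgeR fit to those 8, with a slope of −2.71, gave it an adjusted p of 0.930.

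Against the macrophage score the edgeR test called 0 of 49 members rising and 0 falling, beside 0% and 0% of all genes tested. At an unadjusted p under 0.05, 3 members rose and 10 fell, beside 2024 genes (14% of all genes) in either direction. DESeq2 called 1 member (2.04%), falling, beside 0.965% of all genes falling, and 0 rising, beside 0.951%. The smallest adjusted p of a member was 0.199, for Kcna7, with a slope of −3.20 (SE 0.911). The positive slopes with the smallest p were those of Kcnab2 with 1.33 (SE 0.452), Kcnk13 with 1.05 (SE 0.362) and Kcnn4 with 1.51 (SE 0.566), followed by Kcnab1 with 0.94 (SE 0.525) and Kcnk1 with 2.08 (SE 1.25). Among the negative slopes with the smallest p after that of Kcna7 were those of Kcnj11 with −2.64, Kcna2 with −3.29 and Kcnc4 with −4.88. Single mice moved these slopes: without Pax7Cre mouse 2 they were −1.68 for Kcna7, −1.35 for Kcnj11, −2.26 for Kcnc4 and 0.89 for Kcnk1, without Pax7Cre mouse 1 −7.36 for Kcnc4, 2.26 for Kcnab2 and 2.29 for Kcnn4, and without Pax7Cre mouse 4 0.85 for Kcnab2 and 0.98 for Kcnn4. These 5 members with positive slopes had negative slopes on the mature fibre score, and the scores themselves are correlated as given above. As a correlation over the 10 mice without genotype, 1 of 49 members (2.04%) was positive at an adjusted p under 0.05 for Pearson's r, beside 0.77% of all genes, and 0 were negative, beside 0.493%. It was Kcnk13, with r = 0.831 (permutation p = 0.00249, adjusted p = 0.0479) and rho = 0.964 (permutation p = 1e-05, adjusted p = 0.0279), and r = 0.784 without Pax7Cre mice 1 and 4, the mice farthest from the median of this score.

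Genotype separated none of these genes by the adjusted test. By edgeR 0 of 14410 genes, or 0%, passed an adjusted p of 0.05 between miR-501KO and Pax7Cre mice, and DESeq2 called 0 as well, with 151 genes at an unadjusted p under 0.05 by edgeR and 150 by DESeq2. Of the 49 members 1 was higher at an unadjusted p under 0.05, beside 0.382% of all genes, and 0 were lower, beside 0.666%. The 1 was Kcnf1, through which the family was chosen, so nothing is read from that count. The members' median log2 fold change was 0.0079 and 27 of 49 were above 0, beside a median of −0.0042 over all genes. With 1 mouse left out the members' median ran from −0.038 (without miR-501KO mouse 4) to 0.023 (without Pax7Cre mouse 2).

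Kcnf1, a silent subunit that forms no channel alone (ENSMUSG00000051726, chr12:17172100-17176888, minus strand), had 15, 11, 11, 17 and 13 counts in Pax7Cre mice 1 to 5 and 19, 27, 34, 15 and 21 counts in miR-501KO mice 1 to 5. In CPM it was 0.672, 0.580, 0.581, 0.682 and 0.637 in the controls and 0.760, 1.27, 1.42, 0.795 and 0.890 in the knockouts. Every knockout mouse lay above every control once library size was taken into account, though miR-501KO mouse 4 had as many counts as Pax7Cre mouse 1 and fewer than Pax7Cre mouse 4. Kcnf1 was the only member whose groups did not overlap in CPM, beside 0.0625% of genes that did not overlap with the knockouts higher and 0.0763% with the knockouts lower, and nothing is read from this, since the family was chosen through that gene. The means were 0.630 ± 0.0483 and 1.03 ± 0.298 CPM (SD, n = 5 each) and the log2 fold change 0.70 (SE 0.237). Over fits that left out 1 mouse each it ran from 0.55 without miR-501KO mouse 3 to 0.79 without miR-501KO mouse 1. At 11 to 34 counts a library the gene was among the lowest members.

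The log2 fold changes of the other 48 members lay between −0.62 and 0.41, and 40 of the 48 were smaller than their own standard error. The positive ones with the smallest p were those of Kcne3, an auxiliary subunit (0.41, SE 0.217), Kcns3, a silent subunit (0.39, SE 0.325), and Kcnma1, the large-conductance calcium-activated channel (0.15, SE 0.130). The negative ones were those of Kcnk1 (−0.62, SE 0.359), Kcnmb1, the smooth muscle beta subunit of the Kcnma1 channel (−0.28, SE 0.164), and Kcnj15 (−0.22, SE 0.154). Without Pax7Cre mouse 3 Kcnma1 was 0.27 and Kcnj15 −0.13, without Pax7Cre mouse 1 Kcnma1 was 0.088, and Kcns3 was 0.22 without Pax7Cre mouse 4 and 0.25 without miR-501KO mouse 1. Kcne3 had 24, 14, 28, 25 and 24 counts in Pax7Cre mice and 40, 25, 28, 34 and 36 in miR-501KO mice, and the groups overlapped in CPM.

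The genotype values of several genes that followed the mature fibre score depended on Pax7Cre mouse 2. Without it, 5 members other than Kcnf1 had an unadjusted p under 0.05 by edgeR, beside 1.84% of genes higher and 1.28% lower at that threshold. They were Kcnc4 with a log2 fold change of 1.10 (SE 0.334), Kcna7 with 0.68 (SE 0.202) and Kcng4 with 1.67 (SE 0.727), and Kcnj15 with −0.34 (SE 0.111) and Kcnk1 with −0.84 (SE 0.276). All 5 had an adjusted p of 0.999. The mature fibre scores left in this comparison were −0.14, −0.32, −0.63 and 0.032 in the controls and −0.16 to 0.43 in the knockouts. The score was not in the fit, and its part in these values was not tested.

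**Figure D4:**
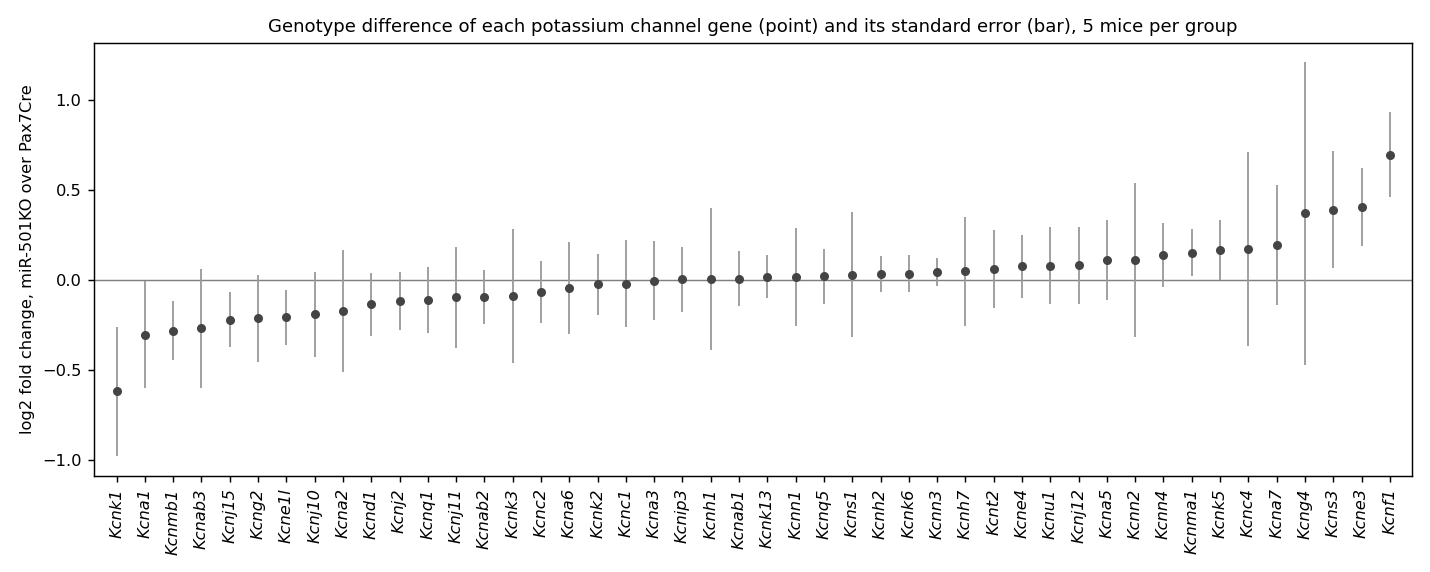
Log2 fold change of 46 of the 49 potassium channel genes, miR-501KO over Pax7Cre with 5 mice a group (points), and its standard error (bars). Kcnf1, at 0.70, is the highest and was the gene through which the family was chosen.

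The members were then searched for sites of the 3′ arm of the deleted miRNA, which pairs with messenger RNA mainly through its seed. miR-501-3p lies at chrX:7241270-7241291 on the minus strand, and miR-500-3p, at chrX:7237695-7237716 on the same strand, is the only other of 1738 mature mouse miRNAs with its seed (RefSeq, GRCm38.p6). Both are shown, 5′ to 3′, with the seed, bases 2 to 8, in capitals, because a site for one is a site for the other.
miR-501-3p: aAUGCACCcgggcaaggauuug
miR-500-3p: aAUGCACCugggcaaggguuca
A match to the seed, GGTGCAT, stood in an annotated 3′ untranslated region of 5 of the 49 members (10.2%), beside 1158 of 14054 protein-coding genes tested (8.24%). With an A after these 7 bases the site was found in 1 member, Kcnj2 (2.04%), beside 273 genes (1.94%). Members with a site included the Kv pores Kcna2 and Kcnc2, the inward rectifier Kcnj2 and the calcium-activated pore Kcnn4. The sites of these 4 are shown with the match in capitals and flanking bases in lower case, all on the plus strand of GRCm38.
Kcna2: cacacctgggaGGTGCATtccc
Kcnc2: gaccatctcaaGGTGCATgcct
Kcnj2: ctaaaatttctGGTGCATagat
Kcnn4: atccacgttgaGGTGCATggac
The matches are at chr3:107105949-107105955 for Kcna2, chr10:112466187-112466193 for Kcnc2, chr11:111075498-111075504 for Kcnj2 and chr7:24384846-24384852 for Kcnn4. Between genotypes the 5 members with a site had a median log2 fold change of −0.12, with 1 of 5 above 0, and the 43 without one, leaving out Kcnf1, a median of 0.018, with 25 above 0. Over the protein-coding genes tested the medians were −0.0091 with a site (45.3% of 1158 above 0) and −0.0039 without (48.0% of 12896 above 0). Among the members the median longest 3′ untranslated region was 3751 bases for the 5 with a site. It was 1704 bases for the 44 without one, Kcnf1 included, so length and site cannot be told apart here. Kcnf1 held no site. A match describes the sequence and was not tested as a binding site.

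Promoters were read for members that moved together with the mature fibre score. Of the 49 members 36 matched RefSeq entries, with 52 promoters of 250 bases before the start of transcription. The E-box CAGCTG, the same on both strands and bound by myogenic factors, was found before 10 of the 36 genes (27.8%), beside 14.7% of 10998 tested genes in the table. Promoters of a gene can overlap and hold the same match, so genes were counted. Among the members that rose with the score it stood before 3 of 9, Kcng4, Kcnj2 and Kcnn1, and among those that fell before 0 of 3. The motif TNAAGGTCA of oestrogen-related receptors was before 0 of 36 (0.827% of tested genes), and the MEF2 motif before 0 of 36 (2.22% of tested genes), on either strand. The 3 rising members with the E-box are shown 5′ to 3′ on the strand of the gene, the motif in capitals, from chr8:119635681-119635930 (minus strand) for Kcng4, chr11:111065914-111066163 (plus strand) for Kcnj2 and chr8:70863259-70863508 (minus strand) for Kcnn1 (RefSeq, GRCm38.p6).
Kcng4: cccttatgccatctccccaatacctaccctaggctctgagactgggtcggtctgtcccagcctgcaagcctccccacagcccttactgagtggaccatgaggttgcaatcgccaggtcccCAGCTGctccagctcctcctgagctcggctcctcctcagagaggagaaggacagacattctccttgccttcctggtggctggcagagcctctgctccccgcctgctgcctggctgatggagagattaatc
Kcnj2: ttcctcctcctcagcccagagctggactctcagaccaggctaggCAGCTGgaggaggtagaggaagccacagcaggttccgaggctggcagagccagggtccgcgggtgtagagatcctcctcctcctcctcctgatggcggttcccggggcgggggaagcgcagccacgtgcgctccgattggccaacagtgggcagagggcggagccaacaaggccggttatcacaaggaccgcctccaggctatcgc
Kcnn1: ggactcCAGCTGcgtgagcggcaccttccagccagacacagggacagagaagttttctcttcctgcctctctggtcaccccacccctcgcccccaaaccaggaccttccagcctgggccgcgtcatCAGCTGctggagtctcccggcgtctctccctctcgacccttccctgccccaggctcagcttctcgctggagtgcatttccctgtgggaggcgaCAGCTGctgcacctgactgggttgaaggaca
The Kcnn1 window held 3 matches and the others 1 each. A match is no sign of binding, and the motifs were chosen after the slopes were known.

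Other genes of potassium handling were taken from lists. Beside them stand the 10.9% of all genes that rose with the mature fibre score and the 5.79% that fell. At an unadjusted p under 0.05 it was 29.8% of all genes in either direction. Of the partners of potassium channels (9 of 13 tested), 4 rose by edgeR (44.4%) and 1 fell (11.1%). The risers were the sarcoplasmic reticulum counter-ion channels Tmem38a (slope 0.82, adjusted p = 5.09e-05) and Tmem38b (0.32, adjusted p = 0.0220), Lrrc38, an auxiliary subunit of the Kcnma1 channel (1.26, adjusted p = 0.00305), and Abcc9, the sulfonylurea receptor that pairs with Kcnj11 (0.55, adjusted p = 0.0159). The lysosomal potassium channel Tmem175 fell (−0.34, adjusted p = 0.0235). Of the pumps and cotransporters (18 of 23 tested), 3 rose (16.7%) and 0 fell by edgeR, with 2 falling at an unadjusted p under 0.05. They included the sodium-potassium pump subunit Atp1b1 (1.11, adjusted p = 2.94e-05) and the pump regulator Fxyd1 (0.81, adjusted p = 0.000601). Of 16 other channels tested that set or fire the membrane potential (21 listed), 5 rose (31.2%) and 0 fell by edgeR, with 3 falling at an unadjusted p under 0.05. Among the 5 were the sodium channel subunits Scn4b (3.58, adjusted p = 4.40e-05) and Scn4a (1.06, adjusted p = 0.000315) and the chloride channel Clcn1 (1.01, adjusted p = 9.50e-05). Without Pax7Cre mouse 2, where 0.517% of all genes rose, 1 of the 9 partners (Tmem38a), 2 of the 18 pumps and cotransporters and 1 of the 16 other channels (Scn4b) rose and 0 fell by edgeR. At an unadjusted p under 0.05, 2, 3 and 5 then rose and 1, 0 and 0 fell, beside 11.2% of all genes in either direction. The slope of Lrrc38 was then 0.54. Between genotypes none of these 3 lists had a gene past an adjusted p of 0.05 by edgeR. At an unadjusted p under 0.05 they had 1, beside 1.05% of all genes. It was Fxyd6, with a log2 fold change of −0.17 (SE 0.0737).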

How the data were processed

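Poly(A) RNA of 10 muscles was sequenced by the authors with a strand-keeping kit. Per the submitters' processing notes, reads were aligned with STAR to GRCm38.p5 and counted with featureCounts in R 3.5.1. The deposited values are raw counts per gene, not normalized, 1 table per mouse. Of 25700 identifiers, 25664 matched GENCODE M21, which gave symbols, biotypes and exon lengths. The members and lists were chosen with earlier results of these data known.

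From the counts, edgeR 4.0.16 (R 4.3.3, limma 3.58.1) fitted quasi-likelihood models with TMM factors on the 14410 genes kept by filterByExpr (minimum count 10, minimum total 15), either genotype alone or genotype and a marker score. P-values were adjusted by the Benjamini-Hochberg method over all genes tested. Scores are means of log2 CPM (prior count 2). CPM per kilobase uses the union of annotated exons. Correlations, with 100000 permutations, used numpy 2.4.6 and scipy 1.17.1 in Python 3.11.15, tables pandas 2.3.3 and plots matplotlib 3.10.9. The fits were also run on simulated counts with planted changes. Every gene had the same dispersion there, and apart from the planted changes genes and mice varied independently. That run therefore does not bear on calls that depend on single mice.

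Named genes were Kcnf1, the 10 members highest per length, the highest of each role, the 5 leading members by p on either side of each score fit, the 3 leading members other than Kcnf1 on either side of the genotype fit, and the 3 just inside and outside the count rule. Other members named, such as Kcna5, Kcnj12, Kcnq5, Kcnn2 and Kcnc2, and genes of the other lists were chosen after their values were seen.

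Alternatives were DESeq2 1.42.0 size factors, its Wald test, dropping the filter or tightening it to 10 counts in all 10 mice, each mouse left out, the mouse number as a block, the score without genotype, no extreme mice, a sarcomeric score, another member threshold, transcript length and an 8-base site. Protein sequences were not used here. Values of some single genes, 3 of them members, are not reported here, though they entered the fits, sums and counts.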

Additional observations from a re-analysis of the deposited data

Results flagged for a closer look

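Each of 38 quantities (27 members, 8 role sums and 3 scores) was looked at within each genotype for a mouse whose distance to the nearest other was most of the group's range. This picked out 12 of 76 groups, where chance alone picks about 1 in 20, or 3.8. Members and their role sums share counts, so the 12 are not separate. Many of the 27 members were named for their relation to the scores, and Pax7Cre mouse 2 and miR-501KO mouse 4 have the highest mature fibre scores, so 3.8 cannot be held against the 12.

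Pax7Cre mouse 2 was the highest of its group for Kcna7 (31.4 CPM, others 8.79 to 13.0), Kcnc4 (30.1 CPM, others 3.57 to 8.23), Kcng4 (10.3 CPM, others 0.0528 to 2.33) and Kcnj11 (53.0 CPM, others 18.4 to 25.7). It was also the highest for the summed inward rectifiers (26.1 CPM per kilobase, others 13.1 to 16.0) and the summed silent subunits (3.28 CPM per kilobase, others 0.779 to 1.39). miR-501KO mouse 4 was the highest of its group for Kcnc4 (22.7 CPM, others 8.05 to 10.8), Kcng4 (10.3 CPM, others 0.916 to 3.48) and the summed silent subunits (3.46 CPM per kilobase, others 1.13 to 1.75). These are the mice with the highest mature fibre scores.

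miR-501KO mouse 5 was the highest of its group for Kcnh2, the pore of the ERG channel (9.87 CPM, others 7.47 to 8.07), and so for the summed EAG, ERG and ELK members (2.16 CPM per kilobase, others 1.65 to 1.77). miR-501KO mouse 1 was the lowest of its group for the summed Kv7 pores (9.88 CPM per kilobase, others 11.4 to 11.9). No explanation was tested for any of these.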

How the results depend on the processing

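Over the alternatives, 0 members passed an adjusted p of 0.05 between genotypes by edgeR or DESeq2. Of the values that are counts of members, 99 stayed close to those reported and 21 did not. Without Pax7Cre mice 2 and 4, the mice farthest from the median score, 3 members rose (6.12%, beside 1.01% of all genes) and 0 fell (beside 0.048%) with the mature fibre score. With the regenerating fibre score 0 rose and 0 fell by edgeR (beside 0% and 0%). At an unadjusted p under 0.05, 1 rose and 4 fell with that score, beside 4.69% of all genes in either direction. The Kcnn4 slope on the mature fibre score, −0.55, was then 0.017. The sarcomeric score gave 9 rising members (18.4%, beside 10.8% of all genes) and 5 falling (10.2%, beside 6.35%), DESeq2's Wald test 1 falling member on the macrophage score (2.04%, beside 0.965%), and the 8-base site 1 member (2.04%, beside 1.94%).

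Leaving out 1 mouse at a time, 2 (without Pax7Cre mouse 2) to 13 members rose with the mature fibre score and 0 (without Pax7Cre mouse 2) to 5 (without Pax7Cre mouse 3) fell, beside 0.517% to 11.9% of all genes rising and 0% to 7.93% falling. With the regenerating fibre score 0 (without Pax7Cre mouse 2) to 5 rose, with 1 without Pax7Cre mouse 4 and 3, 2 and 3 without miR-501KO mice 2, 4 and 5, and 1 (without Pax7Cre mouse 2) to 11 (without Pax7Cre mouse 3) fell, beside 0.303% to 9.64% and 0.999% to 12.6% of all genes. For all genes, Pax7Cre mouse 2 left out gave the lowest and Pax7Cre mouse 3 left out the highest of each range. Between genotypes 0 to 5 members other than Kcnf1 had an unadjusted p under 0.05, with 5 without Pax7Cre mouse 2 (beside 3.12% of all genes), 2 (Kcne3 and Kcnma1) without Pax7Cre mouse 3 (0.965%), 1 (Kcnn4) without Pax7Cre mouse 4 (3.24%) and 1 (Kcnk1) without miR-501KO mouse 3 (1.18%). Of 636 further values, most of them for single genes, 566 were classed as the same, 54 lost and 15 gained a call, and 1 was classed as reversed. For single genes the same meant the same direction and side of the threshold. For the Kcnf1 genotype difference it meant a shift within its standard error. The 636 also held the overlap of the 10 highest per length and the members' median genotype fold change. That median was classed by a typical SD of log2 CPM, although its sign varied.

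Mouse numbers are shared by the genotypes, but only some same-numbered mice deviated together (correlations 0.337, −0.154, 0.156, −0.305 and 0.204), so they were not treated as pairs. With the mouse number as a block, 0 members passed between genotypes by edgeR (189 genes at an unadjusted p under 0.05), 12 rose and 3 fell with the mature fibre score (beside 10.8% and 5.58% of all genes), and 3 rose and 12 fell with the regenerating fibre score (beside 6% and 10.9%). On each of these scores 12 of the 15 members called were also called without the block. Not every mouse correlated best with its own number.

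Members at few counts a library, such as Kcnf1 at 11 to 34, carry a large counting error. The groups of 5 mice and 1 day, and whole muscle, limit what a fold change can be tied to.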
